A study of Mus musculus with 8 samples.

Results

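Cadherins and protocadherins were examined in RNA-seq libraries of mouse dental papilla cell lines with and without Bmp2. The members were the gene symbols of the count tables formed by Cdh and a number, and those beginning with Pcdh, which gave 95 of 22609 genes. They comprised 5 type I and 13 type II classical cadherins, 6 other Cdh genes, 12 single protocadherins, 15 Pcdha, 22 Pcdhb and 22 Pcdhg genes. The floxed group, iBmp2 fx/fx, is an immortalized line of mouse dental papilla cells in which both Bmp2 alleles are floxed but intact. The knock-out group, iBmp2 ko/ko, is an immortalized papilla line with both alleles deleted. No other allele or agent is given in the labels. Each line gave 1 library of total RNA at 6, 24, 48 and 72 h of culture, 8 libraries in all. The comparison asks how loss of Bmp2, a secreted growth factor of tooth development, changes the RNA of these cells.

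Cadherins are calcium-dependent adhesion proteins that join neighbouring cells. Classical cadherins bind like molecules on the next cell and are anchored to actin through catenins. Type I members such as E-, N- and P-cadherin give strong adhesion, and type II members such as cadherin-11 are typical of mesenchyme and nerve. The classical type marks the tissue, with Cdh1 in epithelium, Cdh2 in mesenchyme and nerve, Cdh5 in endothelium, Cdh11 in bone-forming mesenchyme and Cdh15 in muscle. Protocadherins have the same extracellular repeats but other cytoplasmic tails. The single, non-clustered delta-1 and delta-2 protocadherins lie apart in the genome, whereas the alpha, beta and gamma genes stand in tandem arrays of variable exons, from which neurons choose sets that mark cell identity. In the tooth, the papilla is the mesenchyme that forms pulp and odontoblasts.

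Reads on genes ranged from 25890110 to 32415665 per library. A level of 3 counts, taken as the floor, was 0.0925 to 0.116 CPM, for counting error only. Levels are given in CPM, the reads of a gene relative to the depth of the library, here scaled by the TMM factors of edgeR except for the floor. Bmp2 itself had 1 read in the floxed library of 24 h and 0 in the other 7, so its count did not check the labels. Mesenchymal markers fitted the labelled tissue, with Vim at 1418 ± 160 CPM in floxed and 2302 ± 644 CPM in knock-out cells and Col1a1 at 3185 ± 341 and 3934 ± 766 CPM (SD, n = 3), whereas the papilla gene Lhx8 had at most 1 read per library and the odontoblast gene Dspp at most 1. The 9 epithelial markers summed to 1.75 to 3.77 CPM in floxed and 0.842 to 2.92 CPM in knock-out libraries of 6, 48 and 72 h, and Krt5 had at most 1 read. The knock-out library of 24 h stood apart. Of 1109 genes that differed by genotype with culture time as a block, 84.6% were nearer to the floxed mean in that library. It is therefore given separately, and tests used the 6 libraries of 6, 48 and 72 h, 3 per genotype. These are culture times of 1 line per genotype, and nothing says that they came from separate derivations, so p-values measure the spread between these libraries, change with time included. In bulk RNA, fewer cells with a transcript and less of it per cell cannot be told apart.

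Enough reads for testing were found for 44 of the 95 members, 46.3%, against 58.0% of all genes. Of the 51 others, 30 had at most 3 counts in every library, 5 of them none at all, and the highest single count was 29. A member was called at the adjusted limit when its absolute log2 fold change was at least 1 and its Benjamini-Hochberg adjusted p in edgeR's quasi-likelihood test at most 0.05. It was called at the unadjusted limit when the fold change exceeded 1 with an unadjusted p under 0.05. In knock-out cells 28 members had a higher and 16 a lower estimate, with a median log2 fold change of 0.51, against 0.03 over all 13121 genes tested, of which 46.4% had a lower estimate. At the adjusted limit 3 members were called, Pcdh7 and Cdh6 lower and Pcdh11x higher, against 2.19% of all genes (0.899% higher and 1.29% lower). Pcdh11x had reads enough for testing in the knock-out group only. At the unadjusted limit 9 members were higher and 2 lower, 11 in all, against 7.35% of all genes (3.31% higher and 4.04% lower). With culture time as a block, 12 members passed the adjusted limit, 9 higher and 3 lower, against 8.45% of all genes (3.78% higher and 4.67% lower). The levels of 16 tested members did not overlap between genotypes, against 20% of all genes. With the block, the share of members called higher was above the background, and that called lower was near it.

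**Figure D1:**
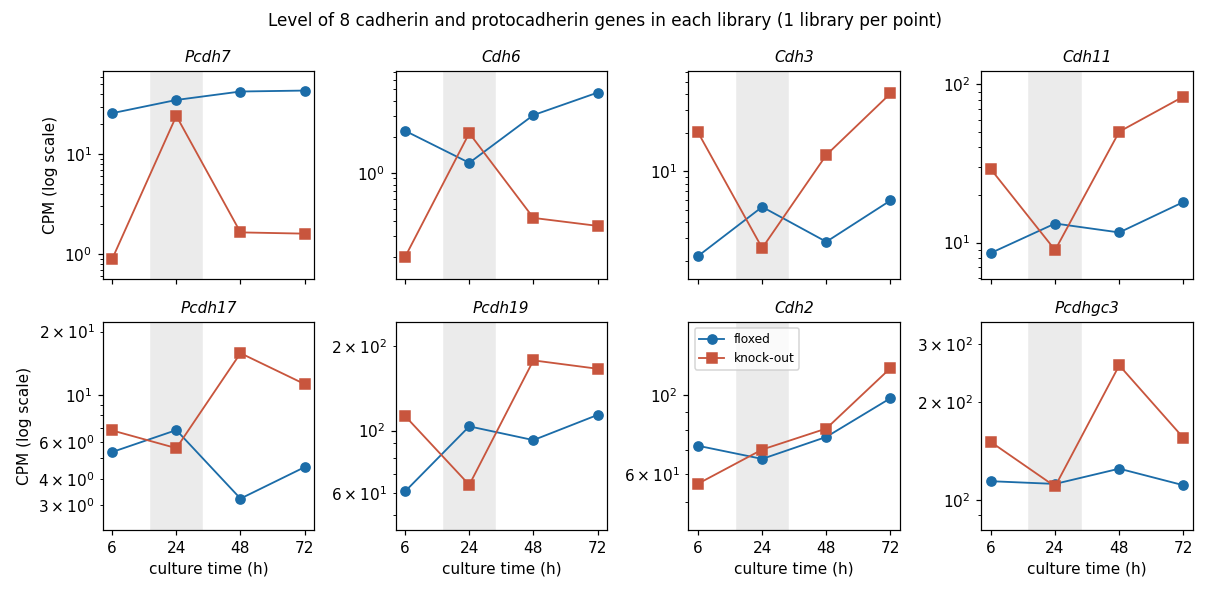
TMM-scaled CPM (log axis) of 8 members against culture time in hours, with 1 library per point, floxed in blue circles and knock-out in red squares and the 24 h libraries shaded. At 24 h the knock-out level of Pcdh7 is 24.2 CPM, against 0.895 to 1.65 CPM at the other times, whereas Cdh2 lies at like levels in both lines.

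Among the type I cadherins Cdh2 and Cdh3 were tested. Cdh2, N-cadherin, was the main type I gene, with 72.1, 76.3 and 98.1 CPM in floxed and 56.4, 80.6 and 119 CPM in knock-out cells at 6, 48 and 72 h. The groups overlapped in full. At 24 h the levels were 66.2 and 70.3 CPM. Its log2 fold change was 0.07 (standard error, SE, 0.28), with an adjusted p of 0.946 in edgeR, and it was below 0 when the floxed library of 6 h (-0.02) or the knock-out library of 72 h (-0.26) was left out.

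Cdh3 (mm9 chr8:109034791-109080808, plus strand, 16 exons), P-cadherin, known from epithelia, had 2.18, 2.82 and 5.93 CPM in floxed and 20.1, 13.4 and 40.6 CPM in knock-out cells at 6, 48 and 72 h. Every knock-out level was above every floxed level, and the mean was 6.78 times higher. The 24 h libraries were the other way round, with 5.28 CPM in floxed and 2.52 CPM in knock-out cells. Its log2 fold change of 2.78 (SE 0.54) missed the adjusted limit in edgeR, with an adjusted p of 0.0508. With the block, Cdh3 rose by 2.76 (SE 0.20, adjusted p 0.000305). It also passed in DESeq2 (adjusted p 9.94e-06), in limma on log2 CPM (0.0440) and in edgeR without the floxed library of 72 h (0.0484). Of 15 alternatives 7 passed, and the adjusted p ran from 9.94e-06 to 0.483. Of the 9 epithelial markers 2 were tested, Krt14 at -1.45 (SE 0.41, adjusted p 0.0414) and Ovol1 at 0.16 (SE 0.41, adjusted p 0.798) with the block, and their part in the level of Cdh3 was not tested. Cdh1, E-cadherin, had 1 to 5 reads per library, and Cdh15, of muscle, 0 to 4, so neither could be compared at this depth.

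Type II cadherins gave 4 tested genes. Cdh11 (mm9 chr8:105156895-105309011, minus strand, 13 exons), OB-cadherin of bone-forming mesenchyme, had 8.61, 11.6 and 18.1 CPM in floxed and 29.1, 50.3 and 83.8 CPM in knock-out cells at 6, 48 and 72 h. The groups did not overlap, with a mean 4.26 times higher in knock-out cells. Its log2 fold change of 2.11 (SE 0.44) had an adjusted p of 0.0648 in edgeR, and with the block it rose by 2.05 (SE 0.14, adjusted p 0.000233), with a range over 15 alternatives of 0.000189 to 0.483. At 24 h the order was reversed, with 13.2 CPM in floxed and 8.97 CPM in knock-out cells. Per kilobase of exon, Cdh11 was at 0.228 to 0.382 times the level of Cdh2 in the 4 floxed libraries. This ratio was 0.986, 1.19 and 1.34 in the knock-out libraries of 6, 48 and 72 h and 0.244 in that of 24 h.

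Cdh6 (mm9 chr15:12963955-13103394, minus strand, 12 exons), K-cadherin of kidney and neural crest, was the type II gene that fell. It had 2.25, 3.04 and 4.68 CPM in floxed cells, from 72, 98 and 139 reads, and 0.199, 0.421 and 0.361 CPM in knock-out cells, from 6, 13 and 9 reads. The floxed mean was 10.2 times higher without overlap, and at 24 h the levels were 1.21 CPM in floxed and 2.15 CPM in knock-out cells. The log2 fold change was -3.31 (SE 0.46, adjusted p 0.0190 in edgeR). It missed the limit without the floxed library of 48 h (adjusted p 0.0934), the knock-out library of 6 h (0.0712) or that of 48 h (0.0969), and over all 8 libraries (0.483). Across 14 alternatives the adjusted p ran from 4.06e-08 to 0.483.

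Cdh24, the most abundant type II gene in floxed cells, had 38.9, 36.1 and 22.97 CPM in floxed and 48.7, 42.9 and 22.9 CPM in knock-out cells, with 29.3 and 34.8 CPM at 24 h. The groups overlapped, and the log2 fold change was 0.24 (SE 0.34, adjusted p 0.827 in edgeR). Cdh18, mainly of brain, was low, with 15, 8 and 44 reads in floxed and 35, 56 and 80 reads in knock-out cells at 6, 48 and 72 h, and 21 and 13 reads at 24 h. Its log2 fold change was 1.51 (SE 0.70, adjusted p 0.404), and with the block it rose by 1.65 (SE 0.38, adjusted p 0.0196). Over 14 alternatives the estimate ran from 1.04 to 2.52 and the adjusted p from 0.0196 to 0.81. Cdh5, VE-cadherin of endothelium, had 0 to 4 reads per library. Below the filter, Cdh22 had 5, 14, 10 and 10 reads in floxed and 2, 2, 2 and 3 in knock-out libraries in order of time, a gene named after its values were seen.

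Of the 6 other Cdh genes, Cdh23, the hair cell tip link cadherin, was the tested one. It had 1.497, 2.14 and 0.472 CPM in floxed and 2.45, 3.17 and 0.602 CPM in knock-out cells, with 1.39 and 1.52 CPM at 24 h. The groups overlapped, and its log2 fold change was 0.62 (SE 0.72, adjusted p 0.785 in edgeR). Cdh26 was under the filter, with 6, 3, 4 and 3 reads in floxed and 29, 6, 29 and 8 in knock-out libraries in order of time. Cdh17, of intestine, had 2 to 8 reads.

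**Figure D2:**
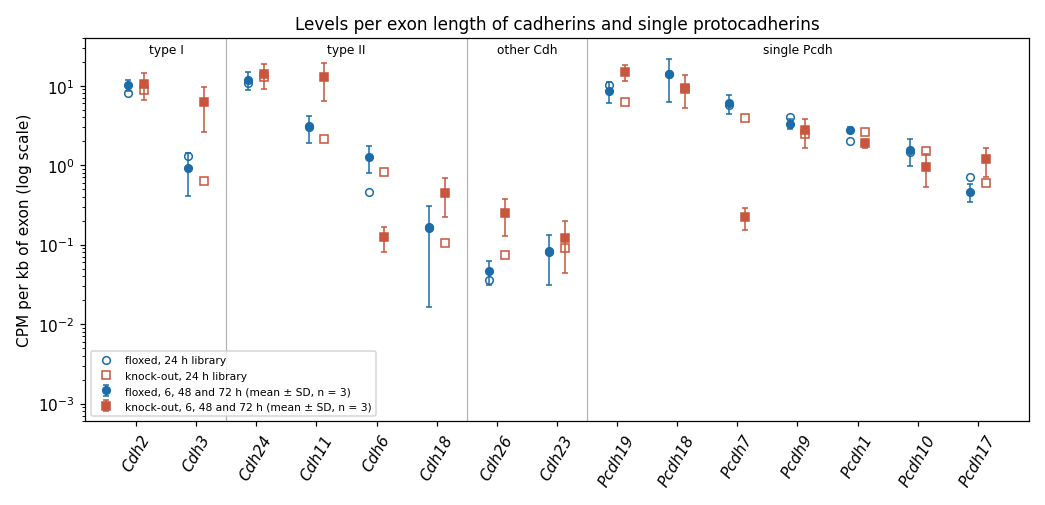
CPM per kilobase of exon (log axis) of classical cadherins, other Cdh genes and single protocadherins of at least 0.05 on average. Filled points are means ± SD of the libraries of 6, 48 and 72 h (n = 3), with lower bars cut at 90% of the mean, and open points are the 24 h libraries. Cdh24, Cdh2, Pcdh18 and Pcdh19 lie highest in floxed cells, and Pcdh7 is 6.00 in floxed and 0.223 in knock-out cells.

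Among 12 single protocadherins 8 were tested, 3 with a higher and 5 with a lower estimate. Pcdh7 (mm9 chr5:58109260-58520590, plus strand, 4 exons), a delta-1 protocadherin also called BH-protocadherin, had the lowest fold change of all members. It had 25.8, 42.5 and 43.4 CPM in floxed cells, from 827, 1371 and 1290 reads, and 0.895, 1.65 and 1.60 CPM in knock-out cells, from 27, 51 and 40 reads. The floxed mean was 26.9 times higher, and the genotypes did not overlap in the 6 libraries or in all 8. The differences within each time were -4.75 at 6 h, -4.63 at 48 h and -4.70 at 72 h on the log2 scale. At 24 h, with 980 floxed and 654 knock-out reads, the difference was -0.53. In edgeR the log2 fold change was -4.73 (SE 0.36, adjusted p 0.00427), and -4.74 with the block (SE 0.16, adjusted p 4.87e-05). Leaving out the knock-out library of 48 h gave an adjusted p of 0.0522, and all 8 libraries gave 0.483. Over 15 alternatives the adjusted p ran from 1.05e-35 to 0.483 and the direction was the same.

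The other delta-1 genes tested were Pcdh1, Pcdh9 and Pcdh11x. Pcdh11x, the X-linked protocadherin of brain, had 0, 0 and 1 reads in floxed and 10, 41 and 20 in knock-out cells at 6, 48 and 72 h, and none at 24 h in either line. The ratio of 71 to 1 reads per depth was 77.6, with a 95% exact interval from 13.5 to 3108 that covers counting error only. No floxed library reached the filter's 10 counts, so Pcdh11x entered the test through the knock-out libraries alone, where it is higher. It rose in edgeR with an adjusted p of 0.0334, but lost the call in 5 of the 6 fits without 1 library. The call held without the knock-out library of 72 h (0.0409). The adjusted p was 0.118 without the floxed library of 6 h, 0.184 without that of 48 h and 0.0823 without that of 72 h. It was 0.0515 without the knock-out library of 6 h and 0.135 without that of 48 h, and 12 alternatives ranged from 0.000987 to 0.21. Pcdh1 was at 21.4, 25.6 and 23.6 CPM in floxed and 17.4, 16.3 and 13.9 CPM in knock-out cells, without overlap, but its log2 fold change of -0.55 (SE 0.19, adjusted p 0.262) was under the fold limit. Pcdh9 had a log2 fold change of -0.25 (SE 0.34, adjusted p 0.820).

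Delta-2 protocadherins included the most abundant single genes. Pcdh19, the X-linked partner of N-cadherin, had 60.7, 92.5 and 114 CPM in floxed and 113, 178 and 166 CPM in knock-out cells at 6, 48 and 72 h. Its groups touched, since 114 CPM in the floxed library of 72 h lay above 113 CPM in the knock-out library of 6 h. The log2 fold change of 0.79 (SE 0.28, adjusted p 0.260 in edgeR) was under the limit, and at 24 h the levels were 104 CPM in floxed and 64.0 CPM in knock-out cells. Pcdh18 had 45.6, 53.1 and 118 CPM in floxed and 31.8, 40.8 and 72.6 CPM in knock-out cells, with 72.0 and 46.5 CPM at 24 h. It was lower in the knock-out library at every time, with a log2 fold change of -0.56 (SE 0.44, adjusted p 0.656), and Pcdh10 had -0.68 (SE 0.42, adjusted p 0.542). Both genes lie on chromosome 3, where the median log2 fold change of 633 genes was -0.39.

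Pcdh17, a delta-2 protocadherin of axons and synapses, had 5.36, 3.22 and 4.55 CPM in floxed and 6.79, 15.8 and 11.3 CPM in knock-out cells at 6, 48 and 72 h. The genotypes did not overlap, with a mean 2.58 times higher in knock-out cells, whereas at 24 h the levels were 6.82 and 5.596 CPM. Its log2 fold change was 1.38 (SE 0.38, adjusted p 0.151 in edgeR). With the block it rose by 1.33 (SE 0.34, adjusted p 0.0304), and over 15 alternatives the adjusted p ran from 0.0131 to 0.512.

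To show the DNA at the start of members that passed the adjusted limit with the block in opposite directions, 4 RefSeq promoters of build GRCm38.p6 are given 5′ to 3′, from 250 bases before to 50 after the start. They are those of Pcdh7 (chr5:57717831-57718130, plus strand) and Cdh6 (chr15:13173626-13173925, minus strand), lower in knock-out cells, and of Pcdh17 (chr14:84443313-84443612, plus strand) and Cdh18 (chr15:23036213-23036512, plus strand), higher with the block. The RefSeq start of Cdh18 lies well inside the gene model used for its length (chr15:22478777-23404173 in the older build mm9), not at its 5′ end. Capitals mark 3 motifs searched on both strands, which are the E-box CAGGTG, the palindrome GGCGCC and the TATA box TATAAA.
Pcdh7: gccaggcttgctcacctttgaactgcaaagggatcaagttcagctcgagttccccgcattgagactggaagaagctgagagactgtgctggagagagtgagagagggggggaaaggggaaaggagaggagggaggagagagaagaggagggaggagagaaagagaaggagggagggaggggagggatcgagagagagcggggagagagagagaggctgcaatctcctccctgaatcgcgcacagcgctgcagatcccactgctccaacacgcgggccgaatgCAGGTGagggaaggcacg
Cdh6: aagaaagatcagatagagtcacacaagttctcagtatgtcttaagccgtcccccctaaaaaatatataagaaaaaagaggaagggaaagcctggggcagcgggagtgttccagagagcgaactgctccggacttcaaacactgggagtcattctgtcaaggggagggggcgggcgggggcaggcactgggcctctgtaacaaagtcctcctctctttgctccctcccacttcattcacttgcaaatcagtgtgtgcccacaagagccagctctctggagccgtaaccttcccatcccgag
Pcdh17: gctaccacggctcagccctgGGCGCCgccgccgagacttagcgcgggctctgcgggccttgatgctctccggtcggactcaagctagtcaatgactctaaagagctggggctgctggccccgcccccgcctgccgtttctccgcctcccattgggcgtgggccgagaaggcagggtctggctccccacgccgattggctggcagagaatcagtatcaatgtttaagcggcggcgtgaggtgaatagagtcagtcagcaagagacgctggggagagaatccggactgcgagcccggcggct
Cdh18: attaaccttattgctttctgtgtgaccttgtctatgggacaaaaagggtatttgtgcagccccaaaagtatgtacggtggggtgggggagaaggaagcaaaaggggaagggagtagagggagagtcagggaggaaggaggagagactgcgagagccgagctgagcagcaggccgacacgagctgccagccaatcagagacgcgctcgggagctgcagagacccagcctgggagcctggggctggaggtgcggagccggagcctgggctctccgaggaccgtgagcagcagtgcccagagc
The Pcdh7 window held 1 CAGGTG, and the other 3 held none, against 20.2% of all 32851 RefSeq promoters of the same length with at least 1. Pcdh17 held 1 GGCGCC, against 11.9% of all, and TATAAA, in 13.6% of all, was in none of the 4. The GC content was 59.3% for Pcdh7, 53.0% for Cdh6, 65.0% for Pcdh17 and 60.3% for Cdh18, against a median of 52.7%, and the number of CG pairs was 11, 8, 26 and 12 in that order, against a median of 7. RefSeq promoters were found for 22 of the 95 members, and those of Cdh3, Cdh11 and Pcdh11x were not among them.

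The clustered protocadherins differed between arrays. The 15 Pcdha genes had at most 3 reads in any library, with sums over the array of 0 to 11 reads. Pcdha1 had at most 2 reads per library, Pcdha10 at most 2 and Pcdhac1 at most 2, so no comparison was possible at this depth. The Pcdhb array held 331 to 651 reads in floxed and 494 to 1307 in knock-out libraries of 6, 48 and 72 h. Pcdhg was the most abundant array, with 162 to 204 CPM in floxed and 197 to 336 CPM in knock-out libraries of these times.

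In the Pcdhb array the coding sequence of a gene lies in a single exon with its own promoter, and the annotation gives 1 exon for 20 of the 22 genes and 2 for Pcdhb8 and Pcdhb20. Reads came mostly from its distal end, where Pcdhb14 to Pcdhb22 held 88.8% to 95.5% of Pcdhb reads in every library. Of these 9 genes 8 were tested, and all 8 had a higher estimate in knock-out cells, with a median log2 fold change of 1.01, against 0.18 over 335 genes of chromosome 18, where the array lies. In edgeR, DESeq2 and limma none passed the adjusted limit, with 4 at an unadjusted p under 0.05 in each, against 14% of all genes in edgeR. The 4 that passed the unadjusted limit, Pcdhb16, Pcdhb18, Pcdhb20 and Pcdhb22, rose with the block. Of all genes, 3.31% passed the unadjusted limit as higher, and 3.78% were called higher with the block. Of Pcdhb1 to Pcdhb13, 2 were tested, Pcdhb5 at 0.66 (SE 0.54) and Pcdhb7 at -0.38 (SE 0.74).

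Pcdhb22, the last gene of the array, was the most abundant. It had 7.45, 8.40 and 4.01 CPM in floxed and 15.2, 17.7 and 8.46 CPM in knock-out cells at 6, 48 and 72 h. The groups did not overlap, and the difference was 1.03, 1.07 and 1.07 on the log2 scale at these times, but 0.13 at 24 h (6.32 and 6.93 CPM). In edgeR the log2 fold change was 1.08 (SE 0.40, adjusted p 0.282), and with the block it rose by the same amount (SE 0.15, adjusted p 0.00294), with a range of 0.00294 to 0.523 over 15 alternatives. Pcdhb17 was next in level, at 3.03, 3.69 and 1.58 CPM in floxed and 6.23, 5.92 and 2.09 CPM in knock-out cells, and its log2 fold change of 0.80 (SE 0.51, adjusted p 0.569) did not pass.

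Pcdhb16, Pcdhb18 and Pcdhb20 were lower in level. Pcdhb16 had 0.936, 0.806 and 0.876 CPM in floxed and 1.42, 2.95 and 1.72 CPM in knock-out cells at 6, 48 and 72 h, without overlap. Pcdhb18 had 0.811, 1.18 and 0.808 CPM in floxed and 1.62, 3.46 and 1.72 CPM in knock-out cells, also without overlap. Pcdhb20 had 1.81, 1.36 and 0.808 CPM in floxed and 3.88, 3.30 and 1.76 CPM in knock-out cells, which overlapped. With the block, Pcdhb16 rose by 1.18 (adjusted p 0.0354), Pcdhb18 by 1.25 (adjusted p 0.0150) and Pcdhb20 by 1.18 (adjusted p 0.0111) on the log2 scale. Without it their adjusted p-values in edgeR were 0.212, 0.232 and 0.307. The Pcdhb genes are alike in sequence, but 88.0% to 100% of the 50-base windows in their exons occurred once on the chromosome. Matches elsewhere in the genome or with mismatches were not counted.

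**Figure D3:**
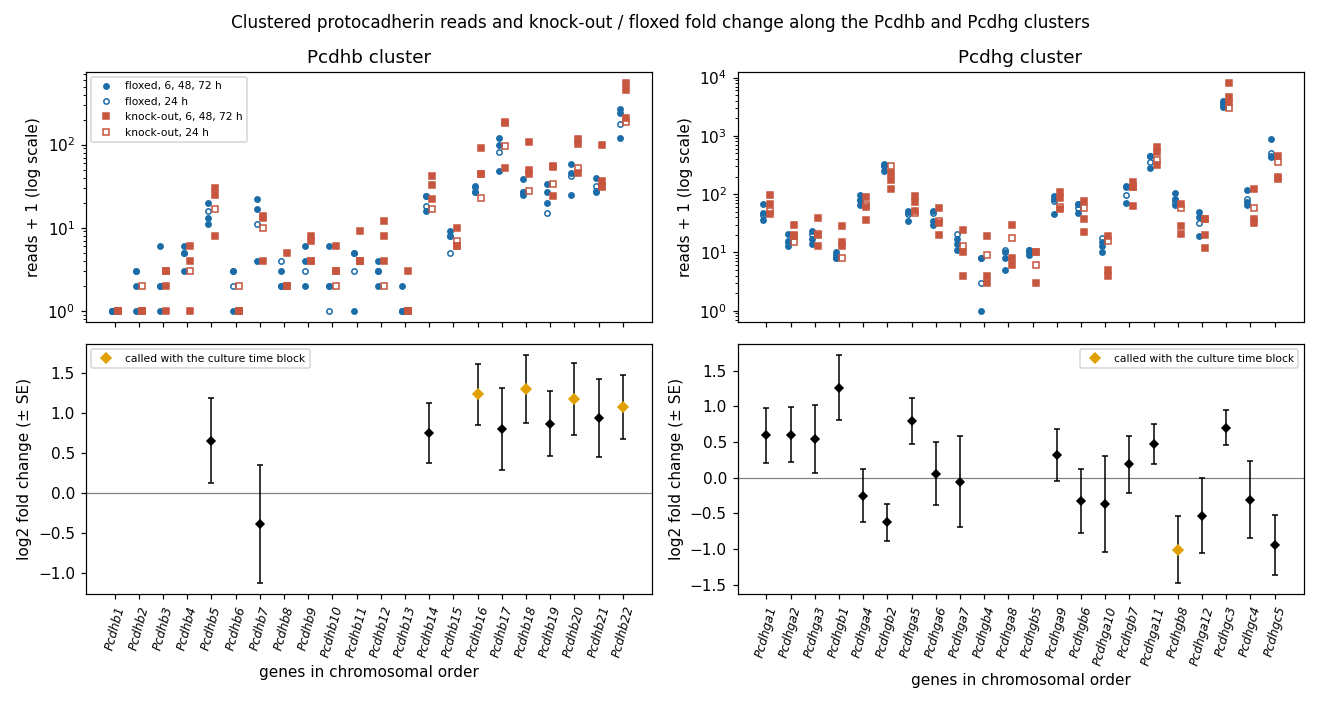
Reads plus 1 (log axis, upper panels) and log2 fold change knock-out over floxed ± SE (lower panels, 3 libraries per genotype) along the Pcdhb and Pcdhg arrays in chromosomal order. Upper open points are the 24 h libraries and gold points passed the adjusted limit with the block. The tested genes from Pcdhb14 on lie above 0, with a median of 1.01, whereas Pcdhg genes lie on both sides of 0.

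In the Pcdhg array, where each variable exon is spliced to shared constant exons, 19 of 22 genes were tested, 10 with a higher and 9 with a lower estimate and a median of 0.05. Among A-type genes 7 were higher and 4 lower, among B-type genes 2 and 3, and among C-type genes 1 and 2. No Pcdhg gene passed the adjusted limit in edgeR, DESeq2 or limma. Of the 19 tested, 4, 5 and 6 had an unadjusted p under 0.05 in that order, against 14% of all genes in edgeR. The levels of 5 did not overlap between genotypes, beside the 20% of all genes. How reads in the shared exons were assigned is not given in the sources used here, which limits the levels of single Pcdhg genes.

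Pcdhgc3, a C-type gene found in many tissues, held 61.4% to 78.7% of Pcdhg reads. It had 114, 125 and 111 CPM in floxed and 151, 258 and 155 CPM in knock-out cells at 6, 48 and 72 h, and 112 and 110 CPM at 24 h. Its groups did not overlap, but the log2 fold change of 0.70 (SE 0.25, adjusted p 0.262 in edgeR) was under the limit. Pcdhgc5, a C-type gene of mature neurons, had 13.9, 27.3 and 14.6 CPM in floxed and 6.10, 14.7 and 7.94 CPM in knock-out cells. It was lower in the knock-out library at each time, 24 h included (17.8 and 13.4 CPM), with a log2 fold change of -0.94 (SE 0.42, adjusted p 0.382).

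Pcdhgb8 was the Pcdhg gene that passed with the block. It had 2.56, 3.22 and 2.12 CPM in floxed and 0.895, 2.17 and 0.802 CPM in knock-out cells at 6, 48 and 72 h, with overlap, and 2.57 and 2.08 CPM at 24 h. With the block it fell by 1.10 on the log2 scale (SE 0.28, adjusted p 0.0300), against -1.01 (SE 0.47, adjusted p 0.404) in edgeR without it, and 14 alternatives ranged from 0.03 to 0.828. Pcdhgb1, at 7 to 9 reads in floxed and 12 to 27 in knock-out libraries of 6, 48 and 72 h, passed the unadjusted limit (log2 fold change 1.26, SE 0.46, adjusted p 0.272). It reached the filter of 10 counts in the knock-out libraries only, where it is higher. Pcdhga11, close to Pcdhgc5 in mean level over the 6 libraries, had 13.9, 13.7 and 9.498 CPM in floxed and 17.6, 20.9 and 12.5 CPM in knock-out cells and a log2 fold change of 0.47 (SE 0.28, adjusted p 0.529). Pcdhga5 was the tested member beside Pcdh7 whose genotypes did not overlap in all 8 libraries, which held for 3.75% of all tested genes and, under the filter, for Cdh22 and Cdh26. It was at 1.15 to 1.61 CPM in floxed and 1.74 to 2.95 CPM in knock-out cells.

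Levels per kilobase of exon could be compared for classical cadherins, single protocadherins and Pcdhb. In floxed cells the order was Pcdh18 (13.99 ± 7.73 CPM per kilobase, SD, n = 3), Cdh24 (11.97 ± 3.11), Cdh2 (10.2 ± 1.73), Pcdh19 (8.65 ± 2.59) and Pcdh7 (6.00 ± 1.60), and each differed from its neighbour by less than the sum of their SDs. In knock-out cells it was Pcdh19 (14.8 ± 3.38), Cdh24 (14 ± 4.95), Cdh11 (12.9 ± 6.54), Cdh2 (10.6 ± 3.94) and Pcdh18 (9.36 ± 4.15), followed by Cdh3 (6.19 ± 3.54), again with neighbours closer than the sum of their SDs. Cdh11 and Cdh3 thus stood among the leading members in knock-out cells and Pcdh7 (0.223 ± 0.068) did not.

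The 24 h difference between lines was set against that of the other times as an interaction in edgeR over all 8 libraries, which rests on 1 library per line at 24 h. No member passed the adjusted limit, against 0.0% of all genes, and 6 of 42 tested had an unadjusted p under 0.05 in edgeR, against 5.02% of all genes, 7 in DESeq2 and 6 in limma. DESeq2 called 3 at the adjusted limit, against 1.17% of all genes, and limma 0, against 0.0%. At the unadjusted limit 5 members passed, against 4.69% of all genes. The interaction on the log2 scale was 4.22 for Pcdh7 (SE 0.66), 4.15 for Cdh6 (SE 0.88), -3.84 for Cdh3 (SE 1.11), -2.66 for Cdh11 (SE 0.90) and -1.47 for Pcdh19 (SE 0.57). The smallest adjusted p was 0.193. With the block, the interaction was 4.23 for Pcdh7, 4.13 for Cdh6, -3.80 for Cdh3, -2.59 for Cdh11 and -1.48 for Pcdh19. Pairing did not hold at 24 h (correlation -0.271). Of the 12 members called for genotype with the block, 11 were nearer to the floxed mean in the knock-out library of 24 h, beside the 84.6% of all called genes given above. Of the 11 with reads at 24 h, 6 had a difference of opposite sign there. Over all 8 libraries no member passed the adjusted limit and 7 passed the unadjusted limit, against 3.55% of all genes. Whether that library holds the labelled cells was not tested.

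**Figure D4:**
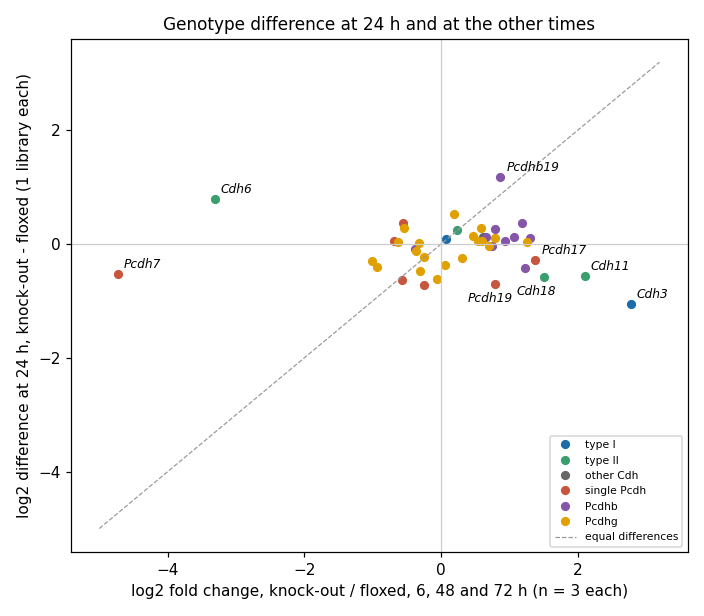
Log2 difference knock-out minus floxed at 24 h (1 library each) against the log2 fold change over 6, 48 and 72 h (3 libraries each) for the tested members with reads at 24 h. Pcdh7 at -4.73 has -0.53 at 24 h, and Cdh3, Cdh11 and Cdh6 lie on the opposite side of 0 at 24 h.

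A trend with culture time, as the slope per doubling of time adjusted for genotype, was tested over the 6 libraries, with a limit of 0.5 in size. The labels' 6 h was used, although the series' design text gives 8 h for the first time. No member was called by edgeR, against 0.0% of all genes, by DESeq2, against 1.22%, or by limma. At an unadjusted p under 0.05 there were 7 members in edgeR, against 21.1% of all genes, and 6 in each of the other tools. The 7 were Cdh11 (0.31), Pcdh18 (0.28), Cdh6 (0.25), Pcdh7 (0.23), Pcdh9 (0.22), Pcdh19 (0.20) and Cdh2 (0.17), all with a positive slope, against 10.9% of all genes at that p with a positive slope. The smallest adjusted p was 0.180, slopes ran from -0.33 to 0.49, and 22 members had a positive and 22 a negative slope.

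Partners and regulators of the cadherins were examined as lists, and 14% of all genes had an unadjusted p under 0.05 in edgeR without and 37.8% with the block. Of catenins and adaptors, which tie cadherins to actin, 13 were tested and none passed with or without the block in edgeR, where 4 and 0 had an unadjusted p under 0.05, or in DESeq2 and limma, where 0 had. Ctnnb1, beta-catenin, had a log2 fold change of -0.19 (SE 0.25, adjusted p 0.811) and Ctnna1, alpha-catenin, 0.06 (SE 0.17, adjusted p 0.918). None of 9 proteases that cut cadherins passed in either edgeR fit or in DESeq2 and limma, with 1 at an unadjusted p under 0.05 in edgeR, 3 with the block, 2 in DESeq2 and 1 in limma. None of 14 genes of protocadherin cluster architecture passed in the same fits, with 2, 8, 3 and 3 at an unadjusted p under 0.05 in that order. Among the zinc finger and helix-loop-helix repressors of cadherin switching, 8 were tested and none passed without the block in edgeR or limma, with 2 and 3 at an unadjusted p under 0.05, whereas DESeq2 called 1 and had 4 at that p. With it, Snai1 fell by 1.22 (SE 0.21, adjusted p 0.00696) and Snai2 by 1.04 (SE 0.12, adjusted p 0.00136) on the log2 scale. Of 7 tested genes of the wider superfamily, Celsr1, a planar polarity cadherin, was called lower in edgeR (-2.34, SE 0.45, adjusted p 0.0488). In limma its estimate was -2.26 (SE 0.44), which missed the limit (adjusted p 0.0546). Cdhr1, of photoreceptors, fell with the block (-1.23, SE 0.34, adjusted p 0.0386).

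Cell type markers moved with genotype in some lists. The 11 markers of mesenchyme and dental papilla summed to 7196 to 8604 CPM in floxed and 9545 to 13159 CPM in knock-out libraries of 6, 48 and 72 h, without overlap. Most of that sum was Vim, Col1a1 and Col1a2. The median log2 fold change of the 9 tested was -0.16 without the block. Estimates were higher for Vim, Col1a1, Col1a2 and Pax9 and lower for Msx1, Msx2, Lhx6, Twist1 and Prrx1. Of the 9 tested none passed the adjusted limit in edgeR, DESeq2 or limma, or with the block, where all were under the fold limit and 7 had an unadjusted p under 0.05, against 37.8% of all genes. With the block, the log2 fold change was 0.68 for Vim (SE 0.20, adjusted p 0.0449), 0.58 for Col1a2 (SE 0.12, adjusted p 0.0162) and -0.80 for Msx1 (SE 0.19, adjusted p 0.0222). The 4 blood markers summed to 4.38 to 14.4 CPM in floxed and 2.81 to 3.43 CPM in knock-out libraries of 6, 48 and 72 h, where 2 of 4, Cd68 and Csf1r, fell with the block and Ptprc was at 0 to 2 reads. The 4 pericyte markers summed to 0.539 to 1.15 CPM and 0.199 to 0.361 CPM, with Kcnj8 and Abcc9 at 0 and Cspg4 lower in edgeR (-2.37, SE 0.44, adjusted p 0.0441) but not called in limma (adjusted p 0.0558). The 6 endothelial markers, which bear on Cdh5, summed to 2.26 to 5.49 CPM and 1.76 to 4.47 CPM, with Kdr lower and Tek higher with the block. The 6 myogenic markers summed to 8.08 to 13.5 CPM and 3.61 to 5.37 CPM, with Des lower with the block. The 8 neural and glial markers, cells where Pcdh17, Cdh18 and Pcdh11x are known, summed to 21.1 to 44.5 CPM in floxed and 44.6 to 60.1 CPM in knock-out libraries, and of the 2 tested none passed in edgeR, DESeq2 or limma, with 1 at an unadjusted p under 0.05 in each. Most of that sum was Tubb3, at 30.3 ± 11.96 and 51.8 ± 8.96 CPM (SD, n = 3), whereas Sox10, Elavl4, Snap25 and Rbfox3 had at most 3 reads per library. Their part in the differences of cadherins was not tested.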

How the data were processed

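Total RNA was sequenced as 50-base single-end reads, per the labels, whereas the study's methods speak of paired reads. The authors aligned them to mm9 with TopHat2 2.0.8b and deposited the HTSeq counts per gene symbol, without normalization. Strand setting and annotation are not given in the sources used here. The lncRNA tables list no member and were not used. The 5 HTSeq counter rows were left out. Among them, alignments to several positions made up 41.3% to 49.6% of the total of gene and counter rows.

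Members and gene lists were chosen with earlier results of these data known. Counts were tested in R 4.3.3 with edgeR 4.0.16 (TMM, quasi-likelihood test, filter of 10 counts and 15 in total), adjusted over all genes, on the times the study's methods list. Differences within a time use log2 CPM with a prior count of 2. Alternatives used DESeq2 1.42.0, limma 3.58.1, other filters and libraries, and culture time as a block. Libraries of the same time deviated together (correlations 0.713 at 6 h, 0.536 at 48 h and 0.841 at 72 h), so blocked values stand beside results whose call they change. Tests were tried on simulated counts. Of 100 genes changed by 1.5 on the log2 scale, 98 were recovered for genotype. For the 24 h difference 76 of 100 were, with 8 false calls. The genotype simulation held no change with culture time, a fixed spread for all genes and changed genes of many reads. Its share recovered therefore does not measure the power for the members. Lengths came from GENCODE M1 on mm9, which located 59 of 95 members and 94.8% of symbols. It gave a model of their own symbol to 2 of 15 Pcdha genes (Pcdha11 and Pcdha3) and 1 of 22 Pcdhg genes (Pcdhgc5), so these classes were ranked by CPM.

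Full values are given for members called with or without the block, the 3 highest of each class and the type genes Cdh1, Cdh2, Cdh5, Cdh11 and Cdh15. Of the lists, genes called are named, at most 5 a list.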

Additional observations from a re-analysis of the deposited data

Results flagged for a closer look

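In the knock-out line, the 24 h library lay far from the other 3 for 2 members. Pcdh7 was at 24.2 CPM there, against 0.895, 1.65 and 1.60 CPM at 6, 48 and 72 h, with a gap to the nearest library of 0.968 of the range. Cdh6 was at 2.15 CPM, against 0.199, 0.421 and 0.361 CPM, with a gap of 0.886 of the range. Both gaps exceeded Dixon's 95% critical value for 4 libraries. In all, 42 sets of 4 values were checked, each 1 member in 1 line, and 2 passed. Chance passes that value in about 1 of 20 independent sets, but these sets share libraries. Both flags fell in the knock-out library of 24 h, and their cause was not tested.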

How the results depend on the processing

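Shares in parentheses are of all genes tested in the same fit. At the adjusted limit, 3 members were called over 6 libraries in edgeR (2.19% of all genes), 6 with DESeq2 (5.02%), 5 without a filter (1.84%) and 1 with at least 10 counts in every library (1.18%). With culture time as a block the number was 12 (8.45%), over all 8 libraries 0 (0.0%), over all 8 with the block 0 (0.253%), and over 7 libraries without the knock-out library of 24 h, an alternative chosen after seeing the data, 5 (3.12%). Leaving out each library gave 0 to 4, and the share of all genes called moved as well. The number was 0 without the knock-out library of 48 h (0.0676%, 9 genes in all), 1 without the floxed library of 48 h (0.105%, 14 genes) and 1 without the knock-out library of 6 h (0.638%, 85 genes), against 287 genes over 6 libraries. The 3 members, Pcdh7, Cdh6 and Pcdh11x, were kept by DESeq2, the block, the fit without a filter and the 7 libraries. At the unadjusted limit, 11 (7.35%) became 7 over all 8 libraries (3.55%), 4 with the block over all 8 (5.08%) and 7 with limma on log2 RPKM (6.10%), where genes without a length were left out, and 9 to 14 without 1 library (781 to 1343 genes in all). The 24 h difference called 0 members (0.0%), but 3 with DESeq2 (1.17%) and 5 with the block (5.21%), where pairing did not hold (correlation -0.271 at 24 h). Over 307 alternatives for 21 members, 272 left direction and call as they were, 14 lost and 19 gained a call, and 2 turned the direction, both for Cdh2, which ran from -0.26 to 0.32 without 1 library and was -0.02 without the floxed library of 6 h. The causes were not tested, beyond the fewer genes or libraries of some fits. Members under about 10 reads are limited by depth.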
